A study of Mus musculus with 18 samples.

Results

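The transcript profile of freshly isolated control naive CD4+ T cells was taken from the 3 control fresh libraries of a mouse series of 18 RNA sequencing libraries. The libraries were chosen by their titles alone, and all 15137 rows of the table, 1 row per gene symbol, were ranked by the mean of their log2 values in these 3 libraries. The mice were of the inbred laboratory strain C57BL/6J, and spleen cells were sorted as naive T cells by surface markers, among them CD3+, CD4+, CD25- and CD44-, and were neither cultured nor stimulated. The series also holds cells with a conditional Creld1 knockout made with CD4-Cre, and cells of both genotypes cultured for 8 h, none of which enter the values below. The labels do not say whether the control mice carried CD4-Cre or floxed Creld1 alleles. The 3 libraries carry the same mouse number in the labels, 1, and no label names separate animals, so the spread between them may be technical. No groups were compared, and no test was made.

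Naive CD4+ T cells are mature T cells that have left the thymus and have not yet met their antigen. They circulate between blood, spleen and lymph nodes, entering nodes with the help of the chemokine receptor CCR7 and leaving through the sphingosine 1-phosphate receptor S1PR1, and they survive on interleukin 7 and contact with self peptides. They rest outside the cell cycle until the T cell receptor and CD28 are engaged, after which factors such as T-bet, GATA3, BCL6 or FOXP3 direct different helper fates. TCF1 (encoded by Tcf7) and LEF1 are transcription factors that keep the naive state and the capacity to renew.

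The libraries differed from each other before any gene was considered. Turned back from log2 to the linear scale, the values summed to 7286166, 7192712 and 7234689 in replicates 1, 2 and 3. Across all rows the Pearson correlation of the log2 values was 0.9985 between replicates 2 and 3 and 0.9961 between replicate 1 and either of them. Among the 10612 rows at or above the minimum level (defined below), 73 lay more than 1 log2 unit from the mean of the other libraries in replicate 1, 64 of them lower, against 18 rows in replicate 2 and 19 in replicate 3. The difference followed base composition. Among the 2651 genes with transcripts of at least 54.6% GC, the median difference of replicate 1 from the mean of the others was -0.39 on the log2 scale, and among the 2651 genes of at most 45.0% GC it was 0.25. Of 79 genes for cytosolic ribosomal proteins, 55 were lower in replicate 1 than in both others, with a median difference of -0.35, and all 13 mitochondrially encoded genes were higher, with a median difference of 0.50. The part of base composition in single values was not tested. Values without replicate 1 are therefore given beside those that it moves.

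**Figure D1:**
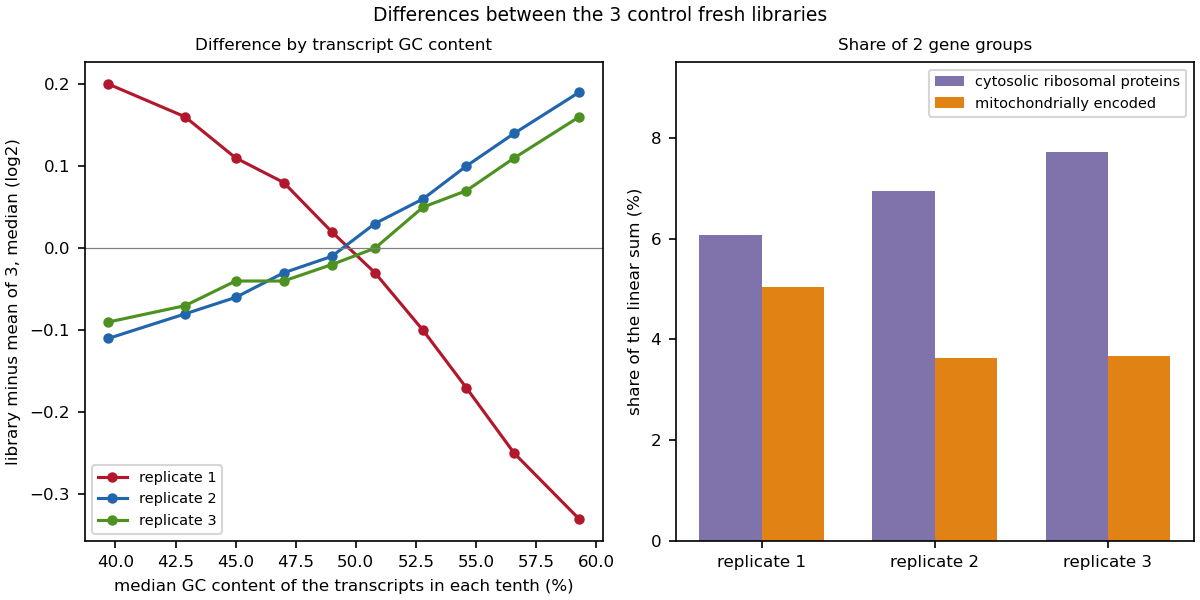
Differences between the 3 control fresh libraries. Left, median log2 difference of each library from the mean of the 3 (vertical axis) in 10 bins of genes ordered by transcript GC content (horizontal axis, %): replicate 1 runs from 0.20 in the bin of lowest GC content to -0.33 in the bin of highest, the others the opposite way. Right, bars give the share of the linear sum (%) held by genes for cytosolic ribosomal proteins (6.07, 6.94 and 7.72 in replicates 1 to 3) and by mitochondrially encoded genes (5.03, 3.63 and 3.66).

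The messenger RNA of these cells was led by genes of mitochondrial respiration and of protein synthesis, but no small set of genes held most of it. The share of a gene is its linear value as a percent of the sum over all 15137 rows in a library. The 10 most abundant rows held 6.94%, 5.55% and 5.80% of the sum in replicates 1 to 3, or 6.09% ± 0.742 (SD, n = 3), and 5.67% without replicate 1. The 100 most abundant rows held 20.3% ± 0.73 (SD, n = 3), and the 1000 most abundant 55.6% ± 0.728 (SD, n = 3). It took 740, 793 and 766 rows to reach 50% of the sum in replicates 1 to 3, and 772 rows, or 5.10% of all, when the mean log2 values were used. It took 8518 rows to reach 99%. Replicate 1 was the most concentrated of the libraries.

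**Figure D2:**
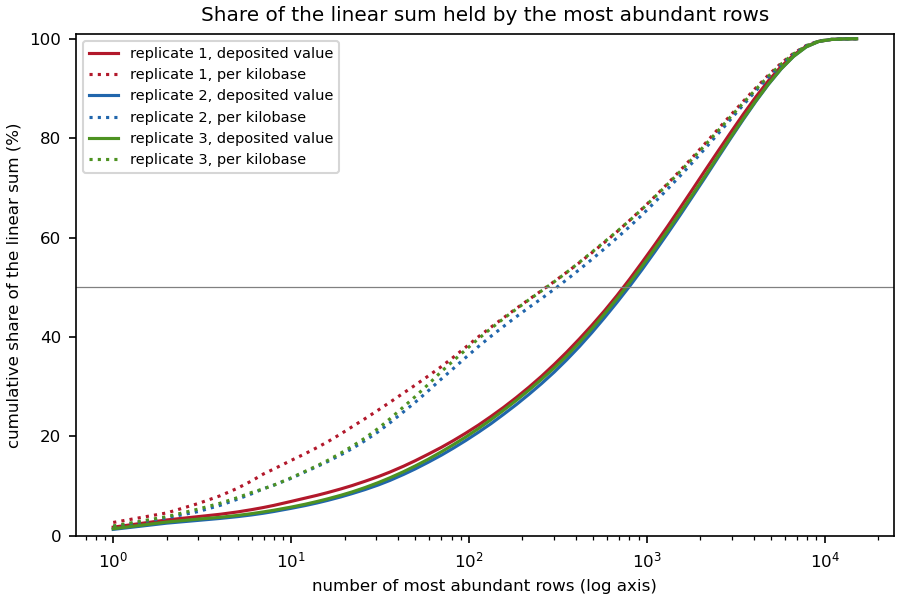
Cumulative share of the linear sum (vertical axis, %) held by the most abundant rows (horizontal axis, number of rows, log scale) in each control fresh library; solid lines use the deposited values, dotted lines the values divided by transcript length. The solid lines cross 50% at 740 to 793 rows and the dotted lines at 272 to 312 genes.

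Long transcripts collect more reads than short ones, so differences in level between genes are given here only after dividing the linear value by the length of the gene's principal transcript in kilobases. Ranks of rows, level classes and shares use the deposited values without this division. Where other definitions of length (the longest transcript, the median transcript or the union of exons) moved a stated difference between 2 genes by more than 1.5 times, the range over them is given beside it. Orders within lists use the principal transcript, and some turn with other definitions of length. A length was found for 15110 of the rows. On this per kilobase scale the distribution was more concentrated, 50% of the sum being held by 272 to 312 genes, depending on the library. The 10 highest genes per kilobase held 12.8% of the sum of the mean values, where the 10 highest rows without the division held 6.05%.

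The single highest row was mt-Co1 (chrM:5328-6872, plus strand), subunit I of cytochrome c oxidase, with log2 values of 16.97, 16.46 and 16.57 in replicates 1 to 3 and a share of 1.46% ± 0.27 (SD, n = 3). Eef1a1 (chr9:78478449-78489151, minus strand, GRCm38), the elongation factor that brings aminoacyl-tRNA to the ribosome, had values of 16.69, 16.53 and 16.67 and a share of 1.4% ± 0.075 (SD, n = 3). These led in every library, mt-Co1 in replicate 1 and Eef1a1 in replicates 2 and 3. Per kilobase their log2 values were 16.04 ± 0.27 and 15.79 ± 0.09 (SD, n = 3), and their libraries overlapped, so their order is not resolved. Eef1a1, like the ribosomal protein genes, has many processed copies in the genome, and the labels do not say how reads shared with them were counted.

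Of the 25 highest rows, 8 were mitochondrially encoded, 6 were ribosomal protein genes and 11 were others, and 19 were among the highest 25 in each of the 3 libraries. The others included Ddx5, an RNA helicase of splicing and microRNA processing, with log2 values of 15.57, 15.29 and 15.36. They also included Tpt1, which encodes the translationally controlled tumour protein, with values of 15.03, 14.59 and 14.73. Ptprc, the CD45 phosphatase that all blood leukocytes carry, had values of 14.80, 14.50 and 14.48. All 3 of these genes were highest in replicate 1. By contrast H2-K1, a class I histocompatibility gene, had its lowest value there, 13.84 against 14.16 and 14.21, and Eef2, the translocation factor of elongation, had 13.60 against 14.26 and 14.35.

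Macf1, a giant linker of actin and microtubules, shows what length does to such a ranking. Its log2 value of 14.79 ± 0.06 (SD, n = 3) put it at rank 4 of all rows, while per kilobase of its 23495 base transcript the value was 10.24 ± 0.06, rank 285. The opposite was seen for Rps27, a small ribosomal protein with a transcript of 345 bases, which went from rank 25 to rank 3 with a log2 value per kilobase of 15.45 ± 0.18 (SD, n = 3). The 25 highest genes per kilobase comprised 9 mitochondrially encoded, 11 ribosomal protein and 5 other genes, with a median length of 784 bases against 2979 over all rows with a length, and 14 genes were in both sets of 25. The 5 others were Eef1a1, Tpt1, Tmsb4x, B2m and Eif4g2. Tmsb4x encodes thymosin beta 4, which sequesters actin monomers, and its log2 values per kilobase were 14.37, 14.32 and 14.32. B2m, the light chain of class I molecules, had 13.98, 13.83 and 13.95. The place of Eif4g2, a translation initiation factor, depends on the length chosen, since its principal transcript has 742 bases and its log2 value per kilobase fell from 13.79 to as low as 10.02 with other definitions of length.

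The 79 genes for cytosolic ribosomal proteins together held 6.07%, 6.94% and 7.72% of the linear sum, and the 13 mitochondrially encoded genes 5.03%, 3.63% and 3.66%. Replicate 1 was thus lowest for the ribosomal protein genes and highest for the mitochondrially encoded genes. Of the ribosomal protein genes, 70 of 79 were in the top 10% of rows, as were 13 of 13 mitochondrially encoded genes. Without replicate 1 the mean shares were 7.33% and 3.65%. Per kilobase the ribosomal protein genes held 16.2%, 18.4% and 20.2% of the sum, and the mitochondrially encoded genes 13.2%, 9.45% and 9.05%. A single ribosomal protein gene stood apart within its group: Rpl35, whose exons overlap those of Arpc5l and Wdr38, had log2 values of 8.78, 10.53 and 10.79, lowest in replicate 1 by more than 1 log2 unit.

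Promoter sequences of the most abundant genes were examined because ETS family factors, among them Ets1, which is itself in the highest 25 rows, bind a short word that is common in promoters of widely expressed genes. The word searched, on both strands, was CCGGAAG, which reads on the opposite strand as CTTCCGG, in RefSeq promoters (build GRCm38.p6) from 250 bases before to 50 bases after the transcription start. Promoters could be matched for 11616 rows. Of the 25 highest rows and the 5 naive CD4+ T cell markers, 30 genes, 19 had a promoter sequence, and 5 of these 19 held the word. The windows of 27 bases below show it in capitals in these 5, each printed 5′ to 3′ on the strand of the gene. Positions are counted from the RefSeq start. In the GENCODE annotation used for lengths, the windows of Ddx5, Rps3a1, Tmsb4x and Tcf7 lie inside the span of the gene, which begins farther upstream, and that of Rpsa lies outside it.
Ddx5, chr11:106789005-106789031, minus strand: tggagccgcgCTTCCGGtgagttggtg
Rps3a1, chr3:86142661-86142687, minus strand: attcttaaagCCGGAAGggcgaaagag
Rpsa, chr9:120127568-120127594, plus strand: gccccagctaCTTCCGGcctggggtct
Tmsb4x, chrX:167209248-167209274, minus strand: tccgaacgccCTTCCGGagatgcggcg
Tcf7, chr11:52282604-52282630, minus strand: gctggagtcaCTTCCGGtgccctgacc
The word began 114 bases before the RefSeq start in Ddx5, 188 in Rpsa, 46 in Tmsb4x, 25 in Tcf7 and 9 in Rps3a1.

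Shares below are of genes, and a gene with several RefSeq promoters was counted where any of them held the word. By level, the word was found in 243 of 1198 genes of the highest 10% of rows, or 20.3%, and in 22.8% of 7220 genes of the intermediate rows. It was found in 5.59% of 1700 genes of low rows and in 4.67% of 1498 genes of rows near the floor. The share over all 27025 genes with a promoter sequence was 9.93%, and over 32851 single promoters 8.86%. Its share was thus higher in the classes above the minimum level than in those below it, and no higher in high than in intermediate rows. In the 100 highest rows, 13 of 70 genes with a promoter sequence held it, or 18.6%. Among ribosomal protein genes, 24 of 58 with a promoter sequence held it, or 41.4%. Promoters also differed in base composition, with a median GC content of 62.7% for high rows, 60.3% for intermediate rows, 55.2% for low rows and 55.0% for rows near the floor, and the part of composition in these shares was not tested. The word TATAAA of the TATA box, searched on both strands, was in 10.8% of high, 7.96% of intermediate, 15.4% of low and 16.9% of near-floor genes, with 15.7% over all genes. In the 100 highest rows it was in 15 of 70 genes with a promoter sequence, or 21.4%. A match to either word is a description of the letters and not evidence of binding.

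Each row was placed in a class by its mean log2 value, and the classes are used from here on. High rows are the top 10% of rows, 1514 of 15137 (10.0%), with mean log2 values of at least 10.09. Intermediate rows lie between these and the minimum level, which was set at 10 on the linear scale (3.32 on the log2 scale) and was reached by 70.1% of rows. Low rows lie below the minimum but at a mean log2 value of 1 or more, and made up 15.7%. Rows near the floor have a mean log2 value below 1 and made up 14.2%, the lowest mean value in the table being -1.35. High rows held 64.6% ± 0.676 of the linear sum (SD, n = 3), intermediate rows 35.2% ± 0.676, low rows 0.161% and rows near the floor 0.0319%. Leaving out replicate 1 kept 96.7% of the high rows and 98.9% of the rows near the floor in their class. At the upper border, the listed genes just inside were Eef1d and Cic, with mean log2 values of 10.10 and 10.09, and those just outside were Notch1 and Stim1, with 10.085 and 10.084. Since the number of reads per library is unknown, a value near the floor cannot be told from no expression. The cells were measured in bulk, so a low level in every cell and a high level in a few cells cannot be told apart, nor can fewer cells of a type and less RNA per cell.

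**Figure D3:**
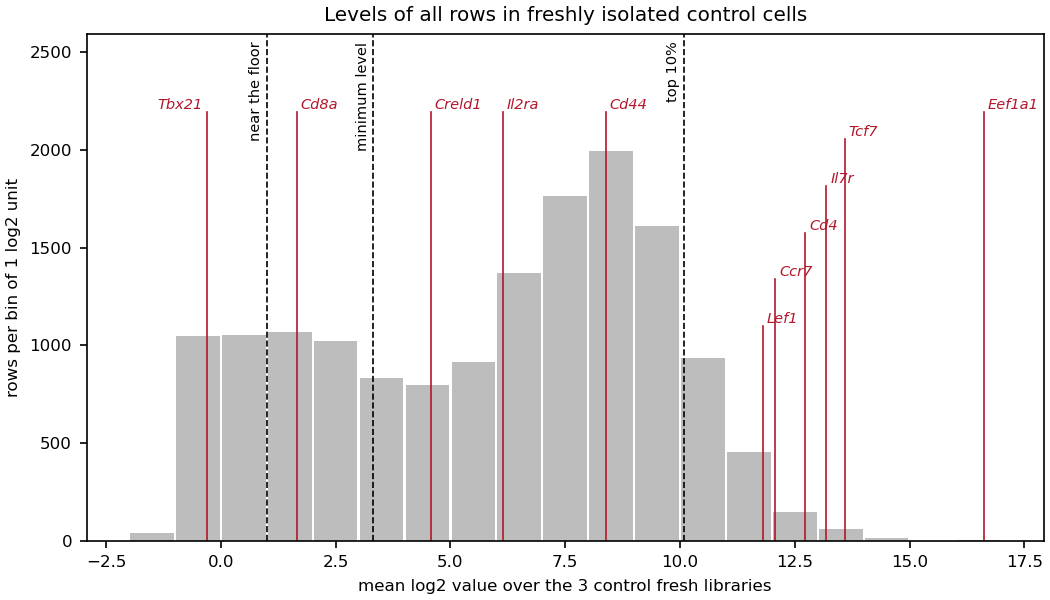
Number of rows (vertical axis) by mean log2 value over the 3 control fresh libraries, in bins of 1 log2 unit (horizontal axis), with dashed lines at the bounds of the classes and red lines at 11 named genes. The rows form a broad peak between 6 and 10 and a plateau below 3.32; Tcf7, Il7r, Cd4, Ccr7 and Lef1 stand above the line of the top 10%, and Tbx21 stands near the floor.

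All 5 genes that mark naive CD4+ T cells were high. Tcf7 (chr11:52252371-52283014) had log2 values of 13.46, 13.68 and 13.65. Il7r (chr15:9505788-9530176), the interleukin 7 receptor alpha chain, had 13.42, 13.02 and 13.13, and was highest in replicate 1. Cd4 (chr6:124864692-124888221), the co-receptor for class II molecules, had 12.70, 12.81 and 12.68. The libraries of each gene lay close together, and the markers did not go against the labelled cell type. The cells were sorted as CD4+, so the height of Cd4 restates the sort. Ccr7 (chr11:99144196-99155077) had 11.96, 12.11 and 12.17, and Lef1 (chr3:131110471-131224356) had 11.72, 11.85 and 11.85. Per kilobase, Tcf7 lay above Il7r (log2 12.29 against 11.37), Il7r above Ccr7 (11.10), and Cd4 (11.09) above Lef1 (10.00), with the libraries of each pair separated, while Ccr7 and Cd4 overlapped.

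Genes of the CD3 chains, for which the gate was positive, were high. Cd3g, Cd3d and Cd3e had mean log2 values of 11.87, 11.41 and 11.33. Cd44, the adhesion receptor by which antigen-experienced cells were gated out, had 8.62, 8.31 and 8.25, and Il2ra, which encodes CD25, had 6.21, 6.25 and 5.96. Both excluded markers were thus intermediate rather than low or near the floor. Per kilobase, Cd4 exceeded Il2ra by 7.09 ± 0.12 log2 units (SD, n = 3), or 137-fold.

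The co-receptor of the other T cell lineage gave unequal values for its chains. Cd8a, the alpha chain, was low in every library, with log2 values of 1.67, 1.67 and 1.60. Cd8b1, the beta chain, which lies beside it on chromosome 6 (chr6:71322788-71337494, Cd8a at chr6:71373427-71379173), was intermediate, with 6.29, 6.80 and 6.6. Per kilobase, Cd8b1 exceeded Cd8a by 5.99 ± 0.27 log2 units (SD, n = 3), or 63.6-fold, and Cd4 exceeded Cd8b1 by 5.10 ± 0.21, or 34.3-fold (4.72 to 6.82 log2 units with other definitions of length). The beta chain is known to need the alpha chain to reach the cell surface.

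Of 13 listed genes of the T cell receptor complex and its surface partners, 10 had a value and 9 of these were high, against 10.0% of all rows. The remaining gene was Ptcra, the pre-T alpha chain of thymocytes, which was low at 1.51, 1.41 and 1.24. The constant genes of the receptor chains were not analysed here. Per kilobase, Ptprc (12.36) lay above Cd3g (11.83), and Cd3g above Cd4 (11.09). The order of Cd3g and Cd4 turned with other definitions of length. It was 10.52 against 11.09 with the longest transcript, 10.16 against 10.72 with the union of exons and 11.83 against 12.81 with the median transcript. By the principal transcript, Cd4, Cd247 (10.95), Cd2 (10.80), Cd3e (10.78) and Cd3d (10.71) each overlapped with the next of these, and Cd3d lay above Cd5 (10.09). The signalling genes beside the receptor were high in 25 of 37, intermediate in 11 and near the floor in 1, and held 1.26% ± 0.061 of the linear sum (SD, n = 3). Dgka, a diacylglycerol kinase that damps receptor signals, was the highest of them with a log2 value per kilobase of 12.20, above Lat (11.46) and Lck (11.30), which overlapped.

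The kinases of the receptor differed widely. Lck, the Src family kinase that phosphorylates the CD3 chains, had log2 values of 12.02, 12.64 and 12.63. Zap70, the kinase that docks on the phosphorylated chains, had 9.13, 9.92 and 9.83. Both were lowest in replicate 1. Per kilobase, Lck exceeded Zap70 by 2.84 ± 0.08 log2 units (SD, n = 3), or 7.15-fold, and by 2.79 without replicate 1. The difference was 2.83 to 3.43 with other definitions of length. Syk, the relative of Zap70 used by B cells and myeloid cells, was near the floor with 1.00, 0.98 and 0.96.

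Among cytokine receptor chains, 11 of 43 with a value were high (10.0% of all rows), 16 intermediate (60.1%), 10 low (15.7%) and 6 near the floor (14.2%). Il7r and Il2rg, the common gamma chain that pairs with it, led the list per kilobase at 11.37 ± 0.21 and 11.51 ± 0.08 (SD, n = 3), and overlapped. Next were Il6ra (9.92) and Tgfbr2 (9.85), which overlapped, then Il27ra (9.41), Ifngr1 (9.21), Il21r (9.14), Il4ra (9.06) and Il6st (8.78), each overlapping with its neighbour. The order of Il6ra and Il6st, the ligand-binding and signalling chains for interleukin 6, turned with other definitions of length (from 1.14 to between -1.34 and 0.13). Other chains of the interleukin 2 receptor were far lower, Il2rb at 5.48 and Il2ra at 4.00, so that Il7r exceeded Il2rb by 5.89 ± 0.44 log2 units, or 59.1-fold, and Il2ra by 7.37 ± 0.25, or 165-fold (down to 5.73 with other definitions of length).

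Several receptors had chains at unequal levels per kilobase. Tgfbr2 exceeded Tgfbr1 by 3.30 ± 0.36 log2 units (SD, n = 3), the type II receptor being the one that binds transforming growth factor beta directly, but by 0.91 to 2.25 with other definitions of length. Ifngr1 exceeded Ifngr2 by 1.19 ± 0.04 (0.79 to 2.20 with other definitions of length) and Ifnar1 exceeded Ifnar2 by 1.70 ± 0.16, the libraries of each pair being separated. The receptor chains for interleukin 12 were low, Il12rb1 with log2 values of 2.95, 3.11 and 3.61 and Il12rb2 with 1.91, 1.77 and 1.88. Receptors of other lineages were uneven. Il1r1 was near the floor with 0.43, 0.43 and 0.34, as was Csf1r, the macrophage colony-stimulating factor receptor, with -0.37, 0.06 and -0.26. Csf2ra was intermediate with 4.45, 4.44 and 4.49.

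Homing receptors for entry into lymph nodes and exit from them were high. Of 37 with a value, 12 were high (10.0% of all rows), 17 intermediate, 7 low and 1 near the floor. Per kilobase, Ccr7 (log2 11.10) overlapped with S1pr1 (10.96), the egress receptor. Itgb7, Itgb2, Selplg, Cxcr4, Itgal and Gpr183 followed between 10.19 and 9.46, each overlapping with its neighbour. They encode integrin chains, a selectin ligand (Selplg) and chemotactic receptors that T cells use to adhere and to position themselves. Itgb7 was lowest in replicate 1, with log2 values of 11.21, 11.87 and 11.75.

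Chemokine receptors of effector and memory cells were at the other end. Cxcr3, which guides T helper 1 cells, was low with log2 values of 2.05, 2.33 and 2.27, and Ccr6, found on T helper 17 cells, was near the floor with 0.04, -0.09 and -0.13. Ccr2 and Cx3cr1 were low with means of 2.96 and 2.08. Ccr9, the receptor for gut homing, Ccr4 and Cxcr5 were intermediate, with means of 6.43, 4.2 and 4.31. Per kilobase, Ccr7 exceeded Cxcr3 by 9.67 ± 0.07 log2 units (SD, n = 3), or 813-fold, and Cxcr4 by 1.42 ± 0.05, or 2.68-fold.

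Receptors that add to or damp the T cell receptor signal were spread over the high and intermediate classes. Of 37 with a value, 11 were high (10.0% of all rows), 24 intermediate (60.1% of all rows), 1 low and 1 near the floor. Cd28, the co-stimulatory receptor for CD80 and CD86, had log2 values of 12.46, 12.05 and 12.14, and was highest in replicate 1. Its relatives Ctla4, an inhibitory receptor for the same ligands, and Icos were intermediate, with 9.11, 9.04 and 9.21 for Ctla4 and 9.80, 9.39 and 9.56 for Icos. Per kilobase, Cd28 exceeded Ctla4 by 1.93 ± 0.23 log2 units (SD, n = 3), or 3.8-fold, and Icos by 2.21 ± 0.05, or 4.62-fold (1.79 to 2.82 log2 units with other definitions of length).

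Inhibitory receptors that appear on chronically stimulated cells were lower. Pdcd1, which encodes PD-1, had log2 values of 4.12, 4.67 and 4.59, Tigit 4.00, 3.98 and 4.2, and Lag3 3.45, 3.63 and 3.84. These were intermediate, but not far above the minimum level of 3.32. Btla, an inhibitory receptor of resting lymphocytes, was high with 11.04, 10.69 and 10.71, and per kilobase it overlapped with Cd28, while Cd28 overlapped with Cd5 and Cd5 with Cd27 (10.13, 10.09, 10.09 and 10.08). Cd69, known as an early activation marker that holds cells in tissue, was the highest of the list per kilobase at 10.60 ± 0.17 (SD, n = 3), with log2 values of 11.48, 11.16 and 11.41 before the division. Its place depends on the length chosen. With the longest transcript Cd69 had 9.04 and Cd28 10.09, and with the union of exons 8.65 and 9.60. With the median transcript they had 11.87 and 11.39.

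**Figure D4:**
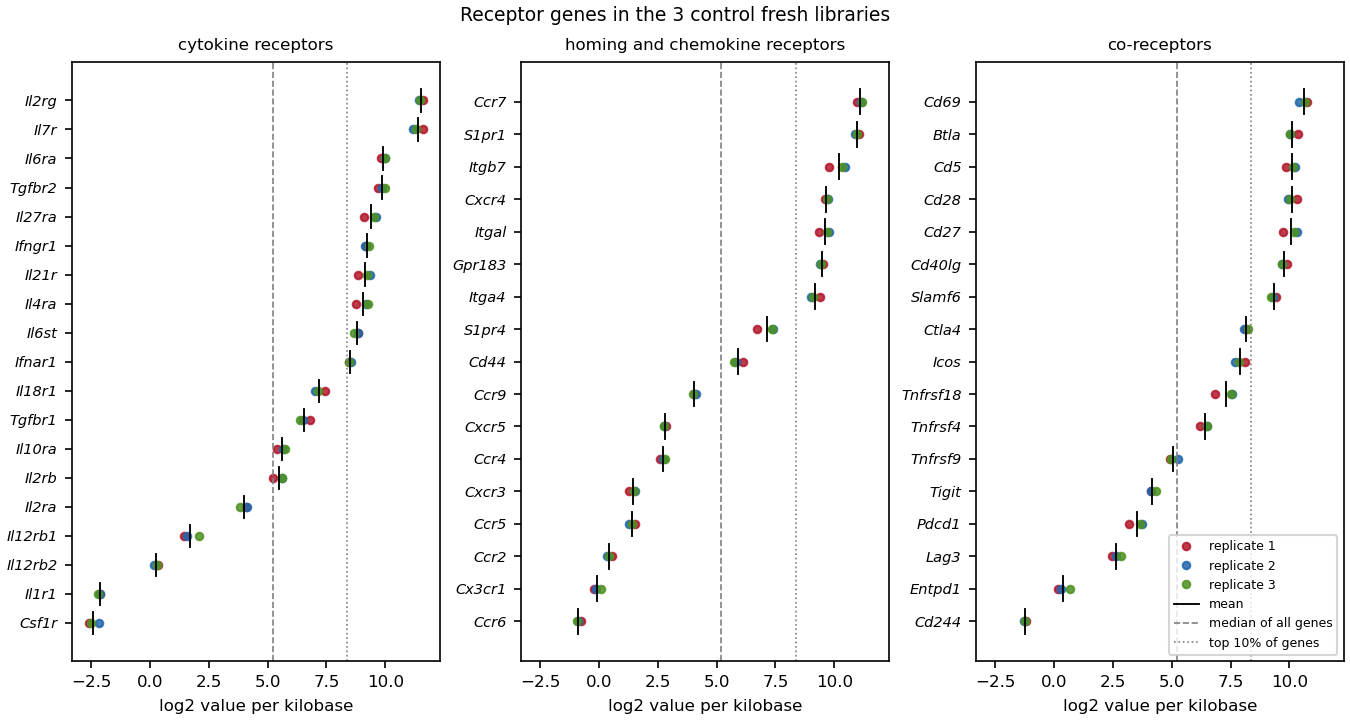
Log2 values per kilobase (horizontal axis) of cytokine, homing and co-stimulatory or inhibitory receptor genes (vertical axis) in the 3 control fresh libraries; points are libraries, short black bars their means, the dashed line the median of all genes (5.21) and the dotted line the bound of the top 10% (8.38). Il2rg and Il7r, Ccr7 and S1pr1, and Cd69 lead their panels, the place of Cd69 depending on the length chosen. The spread between libraries is small beside the range between genes.

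Receptors outside the classic T cell set differed by family. Of 23 receptor tyrosine kinases and related growth factor receptors with a value, 1 was high (Igf2r, a mean log2 value of 10.12), 7 intermediate, 6 low and 9 near the floor, against 14.2% of all rows near the floor. The insulin receptor gene Insr and Igf1r were intermediate, with mean log2 values of 9.34 and 9.01. Of 19 innate sensors and Fc receptors with a value, only Ddx58, the cytosolic RNA sensor RIG-I, was high (10.37), and 7 were near the floor, among them Tlr4 (-0.16) and Tlr9 (-0.64). Tlr1 was intermediate with log2 values of 9.48, 9.14 and 9.43. Of 15 Notch, Wnt and Hedgehog receptors, Lrp6, a Wnt co-receptor, was the high one (10.29), and Notch1 sat at the border with 9.42, 10.38 and 10.45, passing it without replicate 1. Of 26 nuclear receptors with a value, 3 were high (10.0% of all rows), 17 intermediate (60.1%), 5 low (15.7%) and 1 near the floor (14.2%). The share of high rows among them was thus near that of all rows. The high ones were Nr2c2 (10.78), Nr4a1 (10.77) and the glucocorticoid receptor gene Nr3c1 (10.60). The vitamin D receptor gene Vdr was low, with 1.46, 1.52 and 1.31.

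Many transcription factors of T cell identity were high. Of 42 genes in this list, which also holds the RNA-binding protein gene Zfp36l2 and the adaptor gene Themis, 21 were high (10.0% of all rows), 20 intermediate and 1 near the floor, and 20 were high without replicate 1. Their summed share was 1.38% in each library. Ets1, the founding ETS family factor, had log2 values of 14.04, 14.01 and 13.99, and ranked 19 of all rows. Per kilobase, Tcf7 lay above Ets1 (12.29 against 11.67), and Ets1 above Klf6 (10.89), Satb1 (10.37), Ikzf1 (10.27) and Lef1 (10.00). The difference between Tcf7 and Ets1, 0.62 ± 0.14 (SD, n = 3), turned to -0.46 with another definition of length, while that between Tcf7 and Lef1, 2.29 ± 0.05, stayed between 2.22 and 3.53. Satb1, a chromatin organiser, had nearly equal log2 values of 13.01, 13.03 and 12.99 in the libraries.

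Further factors of the naive state formed a middle group. Lef1, Klf2 (9.82), which drives S1pr1, and Elf1 (9.70) each overlapped with the next per kilobase. Foxp1 (8.64), Foxo1 (8.33), Bcl11b (8.13) and Bach2 (8.01) were all high rows before the division, and keep T cells quiescent or committed to their lineage. The Ikaros family was graded, with Ikzf1 above Ikzf3 by 1.54 ± 0.09 log2 units per kilobase, and Ikzf3 above Ikzf2 by 5.07 ± 0.16 (SD, n = 3). These differences were 1.87 to 2.92 and 3.48 to 4.73 with other definitions of length. Ikzf2 encodes Helios, a factor of regulatory T cells. Id2 exceeded Id3 by 2.77 ± 0.47, both being inhibitors of E proteins.

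Zbtb7b, the ThPOK factor that fixes the CD4 lineage, and Runx3, the factor of the CD8 lineage, were both intermediate. Zbtb7b had log2 values of 8.99, 9.41 and 9.25, and Runx3 had 8.45, 8.63 and 8.62. Per kilobase Zbtb7b was 0.49 ± 0.13 (SD, n = 3) above Runx3 with separated libraries, but the difference was -0.12 under another definition of length, and Runx1 and Runx3 overlapped. The order of these lineage factors is therefore not resolved. Tox2, related to Tox, was near the floor with 0.70, 0.90 and 0.79, whereas Tox was intermediate with 8.63, 8.51 and 8.64.

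Factors of helper fates were graded from high to near the floor. Of 27 with a value, 5 were high (10.0% of all rows), 19 intermediate (60.1%), 1 low (15.7%) and 2 near the floor (14.2%). Among the high ones were Stat6, Stat3 and Stat5b, which carry cytokine signals and wait in the cytoplasm as protein, with mean log2 values of 11.22, 10.89 and 10.73, and Hif1a, the hypoxia factor, with 10.30. Gata3, which directs T helper 2 cells and is also needed for CD4 T cells at large, had log2 values of 8.08, 8.14 and 8.17. Tbx21 (chr11:97098071-97115331), encoding T-bet of T helper 1 cells, had -0.39, -0.29 and -0.25. Per kilobase, Gata3 exceeded Tbx21 by 8.07 ± 0.03 log2 units (SD, n = 3), or 269-fold, and by 7.76 to 10.73 with other definitions of length, though for genes near the floor such a fold depends on how the floor was set.

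Bcl6, the factor of follicular helper cells, was intermediate with log2 values of 7.27, 7.57 and 7.32. Foxp3, the factor of regulatory T cells, had 5.89, 6.19 and 5.97, and per kilobase was 7.02 ± 0.09 log2 units below Cd4 (SD, n = 3), or 129-fold, a difference of -7.71 to -6.90 with other definitions of length. Its exons overlap those of Ccdc22 and other genes, so some of its reads may belong to these. Zbtb16, encoding the PLZF factor of innate-like T cells, was near the floor with -0.18, -0.19 and -0.06. Eomes, a relative of T-bet, was intermediate with 5.43, 5.44 and 5.51.

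Factors that are switched on by signals were present without deliberate stimulation. Of 33 with a value, 10 were high (10.0% of all rows), 22 intermediate, 1 low and none (0) near the floor, and 11 were high without replicate 1. Fos had log2 values of 10.91, 11.12 and 11.24, Nr4a1, a nuclear receptor induced by the T cell receptor, 10.31, 10.97 and 11.04, and Jun 10.09, 10.58 and 10.52. All 3 immediate early genes were lowest in replicate 1. Fosb (9.58, 9.89 and 10.51) and Junb (8.55, 9.54 and 9.75) were also lowest in replicate 1. Per kilobase, Nfatc3 exceeded Nfatc2 by 2.33 ± 0.26 (SD, n = 3), or 5.02-fold. Myc, which drives growth after activation, was intermediate with 8.38, 8.68 and 8.57.

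Transcription factors of other lineages were mostly low. Of 22 with a value, 0 were high (10.0% of all rows), 7 intermediate, 6 low (15.7% of all rows) and 9 near the floor (14.2% of all rows), and their summed share was 0.0114% ± 0.00018 (SD, n = 3). Pax5, the factor of B cell identity, was near the floor with -0.17, -0.25 and -0.19. The intermediate ones were Id2, which T cells use as well, Pou2af1 (6.94, 6.86 and 6.98), the B cell coactivator OBF-1, Tcf4, Gata1, Cebpb, Irf8 and Zbtb46. Gata1, the erythroid factor, had 3.75, 4.40 and 4.36, close to the minimum level.

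**Figure D5:**
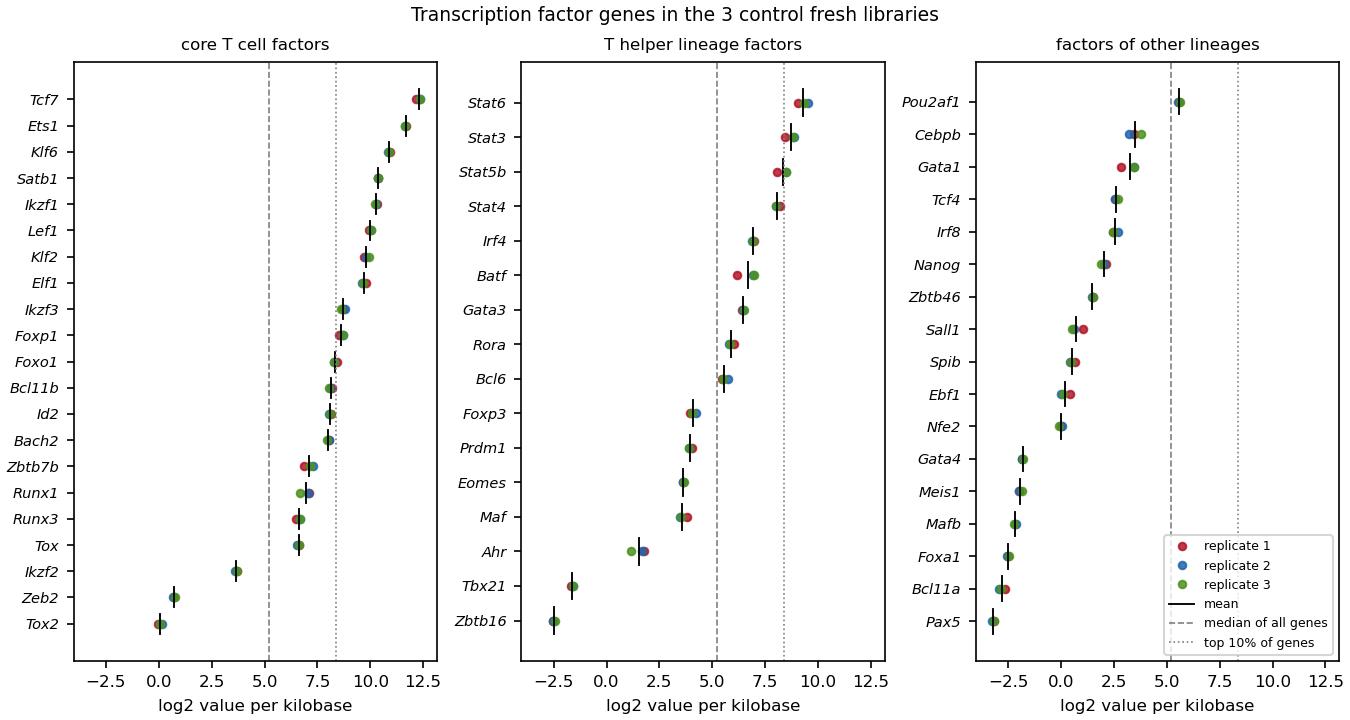
Log2 values per kilobase (horizontal axis) of transcription factor genes of T cell identity, of T helper fates and of other lineages (vertical axis) in the 3 control fresh libraries; points are libraries, short black bars their means, the dashed line the median of all genes (5.21) and the dotted line the bound of the top 10% (8.38). Tcf7 and Ets1 lead the left panel, Stat6 the middle one, and of the genes plotted at right all but Pou2af1 lie below the median; Id2, which the other lineage list also holds, is not plotted at right and lies above it at 8.09.

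Genes of quiescence were mostly high, while the share of high rows among cell cycle genes was near that of all rows. Of 37 naive and quiescence genes, 28 were high (10.0% of all rows) and 9 intermediate, and their share was 2.40% ± 0.02 (SD, n = 3). Gimap6, a GTPase of lymphocyte survival, had log2 values of 14.05, 13.92 and 13.97, and Btg1, an antiproliferative factor, 13.67, 13.70 and 13.79. Some members of this list were chosen because they mark naive cells, so their height restates the sort. Of 37 cell cycle genes, 4 were high (10.0% of all rows), 27 intermediate (60.1%) and 6 low (15.7%), and none (0) were near the floor (14.2%). The high ones were Cdkn1b, Ccnd2, Pcna and Ccnd3, with mean log2 values of 11.55, 11.33, 10.69 and 10.29. The low ones were Ccnb2, Ccna2, Cdk1, Aurkb and Bub1, which act from DNA replication to mitosis, and Ccnd1.

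Transcripts of inhibitors and cyclins of the G1 phase were at unequal levels. Cdkn1b, which encodes p27 and holds resting cells in G1, had log2 values of 11.69, 11.51 and 11.46, whereas Cdkn1a, encoding p21, had 4.23, 4.52 and 4.69. Per kilobase Cdkn1b exceeded Cdkn1a by 5.94 ± 0.36 log2 units (SD, n = 3), or 61.6-fold, and by up to 6.72 with other definitions of length. Ccnd3 exceeded Ccnd1, a cyclin of other tissues, by 8.43 ± 0.34, or 345-fold (6.71 to 8.66 log2 units with other definitions of length), while the order of Ccnd2 and Ccnd3 turned with the definition of length. Mki67, the proliferation marker, was intermediate with 6.33, 6.36 and 6.44, and Cdk1, the mitotic kinase, was low with a mean of 2.08.

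Of 18 genes that rise on activation, 2 were high (10.0% of all rows), 15 intermediate (60.1%) and 1 low (15.7%) in the resting cells. The share of high rows among them was thus near that of all rows. The low one was Il2, the growth factor of activated T cells, with log2 values of 1.72, 1.97 and 1.88. Of 27 effector cytokine and killing genes with a value, 2 were high, 7 intermediate, 11 low and 7 near the floor, against 15.7% and 14.2% of all rows in the lower classes. The high ones were Il16, a chemoattractant for CD4 cells, with 11.09, 11.46 and 11.32, and Ltb, lymphotoxin beta of lymphoid tissue, with 9.73, 10.65 and 10.61, lowest in replicate 1. Ifng was near the floor with 0.40, 0.07 and 0.31, and Il4 was low with 2.1, 1.81 and 2.02. Tnf was intermediate with 6.57, 6.77 and 6.54.

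Genes of the cytoskeleton and of translation were mostly high. Of 39 cytoskeleton and motility genes, 36 were high (10.0% of all rows) and 3 intermediate, with a share of 2.44% ± 0.11 (SD, n = 3), and Tmsb4x exceeded Actb, beta actin, by 1.83 ± 0.23 log2 units per kilobase, but by 0.67 to 1.66 with other definitions of length. Of 29 translation factors and related genes with a value, 24 were high, with a share of 3.59% ± 0.13. Of 21 class I histocompatibility and antigen processing genes with a value, 13 were high, with 0.946% of the sum at the lowest, in replicate 1, and 1.18% at the highest. Class I genes share long stretches of sequence, so the split of reads among H2-K1, H2-D1 and the H2-Q genes is uncertain. Of 34 transporter and channel genes with a value, 11 were high (10.0% of all rows). The calcium channel gene Orai2 exceeded Orai1 by 2.98 ± 0.35 log2 units per kilobase, or 7.89-fold, and Orai1 was lowest in replicate 1, with 6.28, 7.01 and 7.20. The glucose carriers Slc2a3 and Slc2a1 were both intermediate, at 8.89 and 7.72.

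Markers of other cells that a splenic sort could carry along were examined as whole lists. Of 19 B cell markers with a value, 4 were intermediate, 12 low and 3 near the floor (15.7% and 14.2% of all rows in the lower classes), and their summed linear value was 112 to 131 in the libraries. The intermediate ones were Cd74, the invariant chain of class II molecules, with log2 values of 4.32, 4.86 and 5.16, Cd79a, a chain of the B cell receptor, with 3.85, 3.76 and 4.2, and Bank1 and Fcer2a, with means of 3.8 and 3.74. Of their defining genes, Ms4a1 was low with log2 values of 1.78, 2.02 and 1.85, and Pax5 was near the floor as above. Of 18 myeloid markers with a value, 5 were intermediate, 7 low and 6 near the floor, with a summed linear value of 1168 to 1261, most of it from Ctss, a cathepsin (9.87, 9.94 and 9.98). The intermediate ones also included Cst3 and Cd68, with means of 6.91 and 5.19. Csf1r, Adgre1 and Tyrobp of the same list were near the floor with means of -0.19, -0.01 and 0.80. Per kilobase, Fcgr3, Itgam and Lyz2 of this list had log2 values of 3.05, 2.80 and 2.48, against 1.63 for Tyrobp. Of 5 red cell and platelet markers with a value, 2 were near the floor, among them the globin gene Hbb-bs with 0.99, 0.43 and 0.61, and the list summed to 216 to 226.

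Markers of other T cell types were examined in the same way. Over all rows, 10.0% were high, 60.1% intermediate, 15.7% low and 14.2% near the floor. Of 18 CD8 T and NK cell markers with a value, 7 were intermediate, 4 low and 7 near the floor, with a summed linear value of 604 to 678. Klrd1, an NK receptor chain, had log2 values of 7.44, 6.86 and 6.94, and Prf1, encoding perforin, had 6.68, 7.24 and 7.36, while Gzmb, Ncr1 and Klrc1 were near the floor with means of -0.71, -0.51 and -0.59. Of 14 regulatory T cell markers with a value, 12 were intermediate and 2 low, with a sum of 1537 to 1889, and several of these, such as Ctla4, are also made by other CD4 T cells. Of 22 memory and effector markers with a value, 1 was high (Vim, 10.16), 13 intermediate, 6 low and 2 near the floor, with a sum of 5250 to 5704. Per kilobase, 6 of the 22 were in the top 10% of genes (10.0% of all with a length): Ahnak (10.02), S100a10 (9.95), Ly6c1 (9.71), Crip1 (9.69), Vim (9.03) and S100a11 (8.91). For Ahnak, a giant scaffold protein gene whose principal transcript has 830 bases here, the value fell to as low as 5.43 with other definitions of length, for Crip1 to 7.55, and for Vim to 7.92, below the bound of 8.38. S100a4 and Anxa1, which are raised in memory cells, had means of 1.37 and 0.00. Of 4 gamma delta and NKT cell markers with a value, 3 were near the floor. The part of such cells in the values of other genes was not tested.

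Thymocyte markers were uneven. Of 14 with a value, 2 were high (10.0% of all rows), 4 intermediate (60.1%), 3 low (15.7%) and 5 near the floor (14.2%). The high ones were Themis (10.70) and Tcf12 (10.15), both of which mature T cells use. Dntt, the template-independent polymerase of receptor gene assembly, was intermediate with log2 values of 6.35, 6.59 and 6.69, whereas Rag2, the recombinase partner, was low with 2.70, 2.73 and 2.62. Among 10 stromal and endothelial markers with a value, Pecam1, encoding CD31, was high with 10.92, 10.91 and 10.95, and 5 were near the floor, among them Cdh5 (-0.94) and Kdr (-0.36), which define endothelium. Among 12 genes of other organs with a value, Afp, the fetal liver protein alpha-fetoprotein, was intermediate with 6.53, 6.45 and 6.66, and 9 were low or near the floor.

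Creld1 (chr6:113483297-113493343), the gene that the series deletes, was intermediate in the control cells, at rank 9604 of 15137. Its log2 values were 4.33, 4.85 and 4.57, a mean of 4.58 ± 0.26 (SD, n = 3), or 24.2 on the linear scale, which is not far above the minimum of 10. Creld2, its relative in the endoplasmic reticulum, had 6.42, 6.67 and 6.79. Per kilobase the mean values were 3.38 for Creld1 and 6.18 for Creld2, and the libraries did not overlap. With other definitions of length Creld1 ranged from 2.5 to 4.42, while Creld2 stayed at 6.18.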

How the data were processed

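RNA was measured in sorted splenic naive CD4+ T cells, 3 control fresh libraries of 18. Per the labels' protocols, libraries were made from 10 ng of RNA with the TruSeq version 2 kit and sequenced as single-end reads of 75 bp. CASAVA 1.8, HISAT2 2.1.0, SAMtools 1.4, Partek 6.6, DESeq2 and mm10 are named in the submitters' processing notes, without role or order. The annotation, strand setting and normalization method were not given in the sources used here. Normalized values were deposited, and their log2 scale was inferred from the values themselves. Whole reads cannot be recovered from them, so depth is unknown and no counting interval is given. The spread shrank at low levels (median SD 0.0679 below a mean of 0, 0.194 for means of 4 to 6), which may understate differences between libraries there. No 2 libraries were identical (0 pairs), and 0 columns belonged to no sample.

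Values were raised from log2 to the linear scale for shares and divided by the principal transcript length of GENCODE M21 (GRCm38), matched by symbol for 15031 rows and by RefSeq synonym for 79, with 27 unmatched. Of matched rows, 99.8% were protein coding. Levels of a pair of genes were called different where the 3 libraries of one all lay above those of the other. Named were the 25 highest rows by either scale, members of 35 gene lists (800 genes, 652 with a value), the 10 rows of largest and the 10 of smallest SD, and Creld1. The members and lists were chosen with earlier results of these data known. Genes without a value are not analysed here, and some single genes are not reported. The share script was tested on simulated data. Python 3.11.15, numpy 2.4.6, pandas 2.3.3 and matplotlib 3.10.9 were used. Other means, minimum levels, lengths and left-out libraries were tried.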

Additional observations from a re-analysis of the deposited data

How the results depend on the processing

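Shares from the mean log2 profile moved most with the length of transcripts. Per kilobase, 50% of the linear sum was held by 291 genes (772 rows without the division), the 10 highest held 12.8% (6.05%), the 100 highest 37.4% (20.2%), ribosomal protein genes 18.2% (6.87%) and mitochondrially encoded genes 10.5% (4.08%). Without mitochondrially encoded genes, the 10 highest rows held 4.69% and the 100 highest 17.9%. With a floor at a mean log2 value of 0, 1091 rows lay near it, against 2142 with a floor at 1. With the median transcript as length, 15 of the 25 highest genes per kilobase remained among the highest 25, with the longest transcript 20 and with the union of exons 19. Leaving out 1 library at a time gave 759 to 780 rows for 50%, 5.66% to 6.33% for the 10 highest, 19.9% to 20.5% for the 100 highest, 6.48% to 7.33% for ribosomal proteins, 3.64% to 4.31% for mitochondrially encoded genes, 2123 to 2145 rows near the floor, 10598 to 10625 rows at the minimum level and 23 to 24 of the 25 highest genes per kilobase. Of the alternatives run, 9 moved a value by more than the spread between libraries or, for counts, by over 1.5 times, and 40 did not. The cause of these moves was not tested beyond the construction of each alternative. No paired analysis was possible because a single group was described and no comparison was made. The unknown depth limits what can be said of rows below the minimum level.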

Other observations

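Among rows at or above the minimum level, those that varied most between the 3 libraries included Gm45837, whose exons overlap Arap1 and Pde2a, with log2 values of 5.83, 8.46 and 8.66, an SD of 1.58. Fbxw7, a ubiquitin ligase subunit that turns over Myc and Notch, had 8.34, 10.24 and 8.22, highest in replicate 2. Rpl35, a ribosomal protein gene, had an SD of 1.1. At the other end, Mgat5, which branches N-glycans, had 8.49 in each library.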
